A study of Mus musculus with 3 samples.

Results

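Solute carriers for organic nutrients, the membrane proteins that move sugars, amino acids, peptides, monocarboxylates and fatty acids, were read in 3 segments of the embryonic mouse gut. Genes were taken by symbol from 12 families (Slc1, Slc2, Slc3, Slc5, Slc6, Slc7, Slc15, Slc16, Slc27, Slc36, Slc38 and Slc43), which gave 108 of the 33762 features of the expression table. These carry 107 symbols, since Slc38a9 is listed as 2 neighbouring features. Symbols with a letter after the number, such as Slc6a20a, Slc6a20b, Slc5a4a and Slc5a4b, were not taken. The tissues were the presumptive ileum (the hindmost of 3 equal portions of small intestine), the caecum and the colon of wild type Bl6/C57 embryos at E13.5. Each tissue had 1 sample of polyadenylated RNA. How many embryos went into a sample was not given in the sources used here. Triplets of values below stand in the order ileum, caecum, colon.

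Absorptive epithelium takes up nutrients in series. Coupled carriers of the apical membrane, such as the sodium-glucose carrier Slc5a1 and the peptide carrier Slc15a1, draw substrates in from the lumen, and basolateral carriers, such as Slc2a2 for hexoses and Slc16a10 for aromatic amino acids, release them toward the blood. Other members supply dividing cells in general: Slc2a1 brings in glucose, Slc38 and Slc1 carriers bring in neutral amino acids, and Slc7a5 exchanges amino acids as a dimer with the heavy chain Slc3a2. Further members of Slc1, Slc5 and Slc6 take up transmitters or their precursors in nerve and glia.

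Library totals were 50079617, 64439701 and 50772855 counts. Hoxd13 had 1, 13 and 2354 counts and Gata4 had 702, 4 and 58, so the segments differed in known regional genes. All 9 epithelial markers examined were detected, with summed levels of 207, 210 and 245 RPKM, a unit that scales reads to gene length and library depth. Markers of enteric neurons and glia summed to 131, 156 and 75.2 RPKM and those of smooth muscle to 1081, 413 and 567 RPKM. The 9 enterocyte markers were unequal: Dpp4, a dipeptidyl peptidase, had 5017, 3420 and 1840 counts and Apob, an apolipoprotein, had 3414, 3062 and 38, whereas Sis, sucrase-isomaltase, had at most 2. With 1 library per tissue no difference below has a replicate check. Brackets after a ratio give its exact 95% interval, which covers counting error only.

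Most of the carriers were detected, at low to moderate levels. Of the 108 features, 84 had at least 20 counts in a library, 21 were counted below that level, and Slc2a7, Slc7a12 and Slc36a3 came to 0 counts in all 3 libraries, where a count of 0 allows up to 3. All members of Slc3 and Slc43 and 13 of the 14 Slc16 genes reached 20 counts, whereas 8 of the 17 Slc6 genes did. A level of 1 RPKM or more in all 3 libraries was reached by 50 of 108 carriers (46.3%), against 41.0% of all features and 130 of the other 260 Slc and Slco genes. A level of 10 RPKM was reached in every library by 7 carriers, or 6.48%, against 18.3% of all features. Summed over the carriers, the level was 433, 439 and 420 RPKM, or 0.0927%, 0.0976% and 0.0906% of all RPKM.

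The Slc38 family of neutral amino acid carriers held the largest share of this sum in each library, at 42.0%, 37.4% and 41.6%. Slc38a6 (ENSMUSG00000044712, chromosome 12, 74387766 to 74455036 in mm9, the build of all gene positions here) was the most abundant carrier, at 51.6, 47.4 and 51.1 RPKM. Slc38a2, whose expression is known to respond to amino acid supply, had 40.3, 39.9 and 35.2 RPKM. Its neighbour Slc38a1, 44.5 kb away on chromosome 15, had 23.2, 23.2 and 19.5 RPKM. Slc38a10 had 24.5, 23.5 and 24.8 RPKM. These 4 genes stayed within 2-fold in every comparison. Slc38a4, an imprinted amino acid carrier, had 36.5, 23.3 and 37.7 RPKM. It was lowest in the caecum, with an ileum-to-caecum ratio of 1.58 (1.53 to 1.64) and a colon-to-caecum ratio of 1.61 (1.56 to 1.67).

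**Figure D1:**
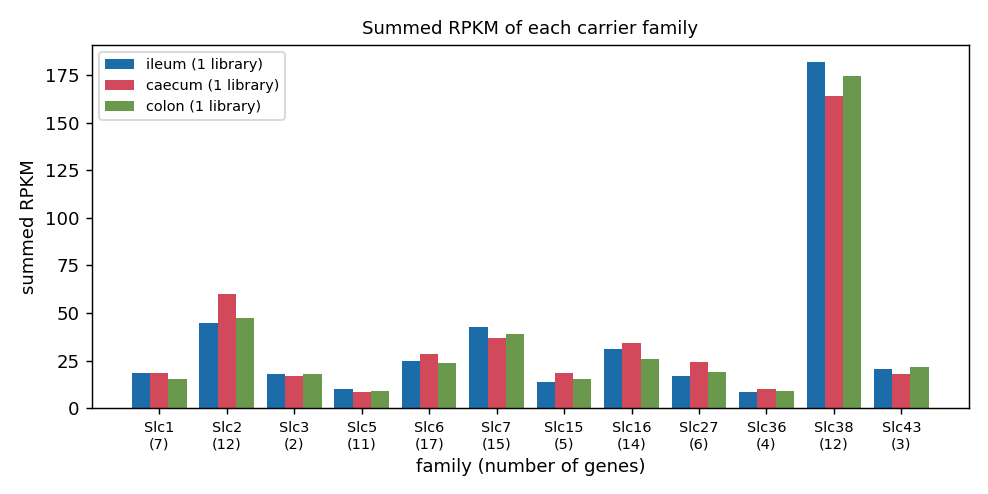
Summed RPKM (vertical axis, linear from 0) of the members of each carrier family, with the number of genes in brackets; each bar is 1 library (ileum, caecum or colon), so no error is drawn. Slc38 sums to 182, 164 and 175 RPKM, and Slc2 to 44.9, 60.0 and 47.5 RPKM with its tallest bar for the caecum.

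Carriers that supply growing cells stayed within 2-fold along the gut, with Slc2a3 and Slc7a3 as the exceptions. Of the 14 members of this list, 2 reached a caecum-to-ileum ratio of 2 and 0 reached the reverse, and none was 2-fold apart in the other comparisons. Among all features 4.59% reached that ratio and 2.52% the reverse. List medians on the log2 scale were -0.02 between caecum and ileum, 0.16 between caecum and colon and -0.07 between colon and ileum, while all features compared had medians of 0.01, 0.01 and -0.00. Slc2a1, the GLUT1 glucose carrier, had 25.3, 27.6 and 25.6 RPKM. Slc1a5, which carries glutamine, had 10.4, 9.67 and 8.05 RPKM, and Slc1a4, for alanine, serine and cysteine, had 5.33, 5.50 and 4.98. Slc16a3, which exports lactate, had 8.85, 9.26 and 6.85 RPKM, but its span overlaps the more abundant Csnk1d on the other strand. Whether counting used strand is not given in the sources used here, so reads of overlapping features could not be told apart.

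The heavy chain Slc3a2, which brings its Slc7 light chains to the membrane, had 15.96, 14.7 and 15.96 RPKM. Its light chain Slc7a5 (LAT1) had 10.6, 8.10 and 11.1 RPKM. Slc7a5 was lowest in the caecum, with an ileum-to-caecum ratio of 1.32 (1.23 to 1.41) and a colon-to-caecum ratio of 1.37 (1.29 to 1.46). Gm20388 overlaps it on the other strand, with 5813, 7176 and 5928 counts. Slc7a6 had 8.75, 8.53 and 9.32 RPKM, and Slc7a11, the cystine-glutamate exchanger, had 1.26, 1.28 and 1.14. The 6 light chains of Slc3a2 that were examined summed to 1.74, 1.78 and 1.83 times its level, a nearly constant proportion. Slc7a1, a cationic amino acid carrier that works without a heavy chain, had 4.28, 3.28 and 3.93 RPKM. Slc43a1, which carries large neutral amino acids, had 7.24, 6.57 and 7.53 RPKM, and Slc43a3, a nucleobase carrier, had 11.97, 9.88 and 12.6.

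Slc2a3 had the highest level among the carriers that stood apart. The gene (ENSMUSG00000003153, chromosome 6, 122677827 to 122751658) encodes GLUT3, a high-affinity glucose carrier best known in neurons. It had 1878, 7496 and 3455 counts, or 5.17, 16.1 and 9.39 RPKM. The caecum library was highest and the ileum library lowest, with a ratio of 3.07 (2.92 to 3.23), and the caecum-to-colon ratio was 1.72 (1.65 to 1.79). Set against Slc2a1 on the RPKM scale, Slc2a3 came to 0.204, 0.581 and 0.366 of its level. Of the 8 enteric neuron and glia markers, 0 were 2-fold apart between caecum and ileum, beside 4.59% up and 2.52% down among all features. Against the colon, 4 of the 8 were at least 2-fold up in the caecum and 0 down, beside 5.11% and 2.74%. The part of these markers in the differences of Slc2a3 was not tested. Gm4482, which overlaps Slc2a3 on the same strand, had 134, 186 and 150 counts.

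**Figure D2:**
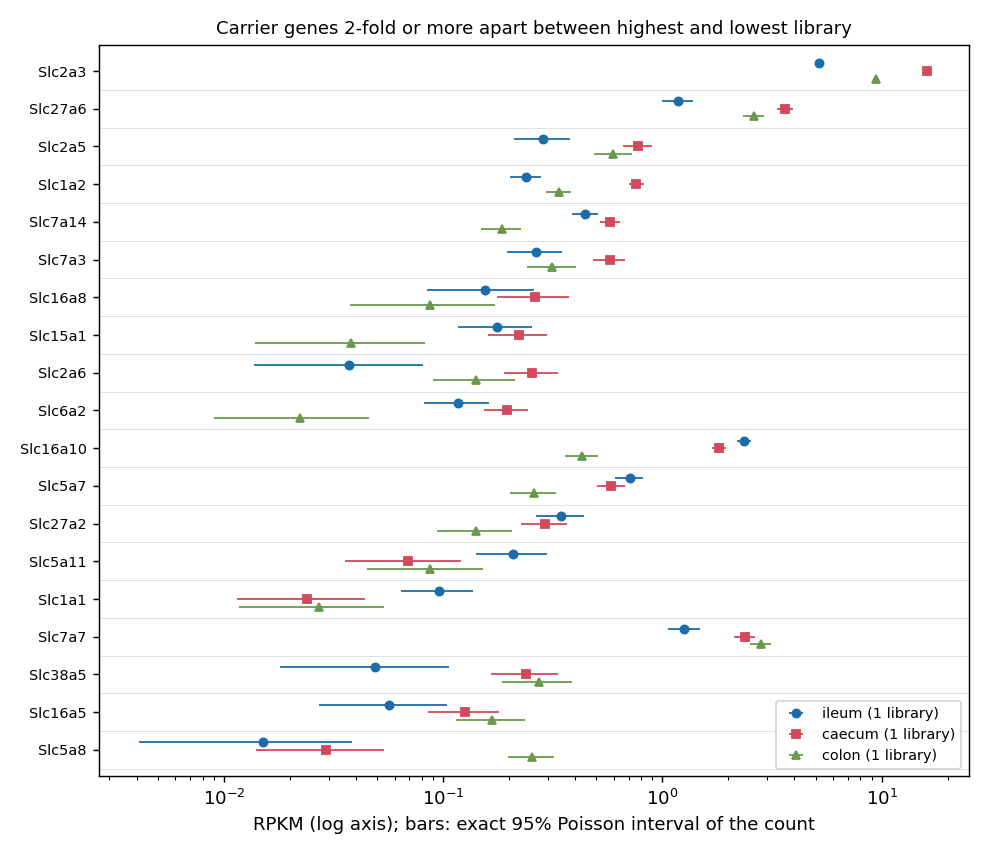
RPKM (horizontal log axis) of 19 of the 20 carrier genes whose highest library was 2-fold or more above the lowest, in each tissue (1 library each), with bars for the exact 95% Poisson interval of the count, ordered by the highest library and then by level. The caecum is highest for 10 of the genes drawn, the ileum for 5 and the colon for 4, and Slc2a3 has the highest level of all.

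In all, 20 of the 84 carriers with 20 counts or more (23.8%) were at least 2-fold apart between their highest and lowest library, against 13.7% of all features and 15.3% of the other Slc and Slco genes. The caecum was the highest library for 11 of them, or 13.1% of the 84, where 5.76% of all features had that pattern. The ileum was highest for 5 (4.01% of all features) and the colon for 4 (3.96% of all features). The caecum library was also the deepest. Yolk sac endoderm markers were highest in it too, with sums of 16.2, 70.7 and 28.0 RPKM. Liver markers, which share Afp and Ttr with them, summed to 23.2, 49.6 and 36.6 RPKM. Of the 5 yolk sac markers, 3 were at least 2-fold up and 1 down against the ileum, beside 4.59% and 2.52% of all features. Against the colon 2 were up and 0 down, beside 5.11% and 2.74%. The part of either set of markers in the carriers' pattern was not tested.

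Slc1a2, a glutamate carrier best known in astrocytes, was highest in the caecum, with 156, 643 and 226 counts, or 0.238, 0.759 and 0.338 RPKM. Its caecum-to-ileum ratio was 3.17 (2.66 to 3.799) and its caecum-to-colon ratio 2.25 (1.93 to 2.63). The related Slc1a3, found in glia, stayed within 2-fold at 1.76, 1.76 and 1.49 RPKM. Slc7a3, a cationic amino acid carrier, had 50, 140 and 60 counts. The caecum exceeded the ileum by a ratio of 2.15 (1.55 to 3.04) and the colon by 1.85 (1.35 to 2.54).

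A further set was lowest in the ileum. Slc27a6, a fatty acid transport protein, had 146, 580 and 330 counts, or 1.17, 3.62 and 2.62 RPKM, with a caecum-to-ileum ratio of 3.05 (2.54 to 3.69) and a colon-to-ileum ratio of 2.20 (1.80 to 2.69). Slc2a5, the GLUT5 fructose carrier, had 48, 169 and 103 counts and the corresponding ratios 2.71 (1.95 to 3.81) and 2.09 (1.47 to 3.002). Both genes were highest in the caecum. Slc7a7, a light chain that releases cationic amino acids, had 1.26, 2.37 and 2.82 RPKM and a colon-to-ileum ratio of 2.20 (1.80 to 2.70), with the caecum between the other libraries on the RPKM scale. It overlaps Oxa1l, whose 1918, 2507 and 2500 counts lie on the other strand.

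Sparser members were also lowest in the ileum, with wide intervals. Slc2a6, a hexose carrier, had 6, 52 and 23 counts, giving 6.66 (2.86 to 19.0) for caecum to ileum and 3.73 (1.47 to 11.2) for colon to ileum. Slc38a5, a glutamine carrier, had 6, 34 and 31 counts, giving 4.36 (1.81 to 12.7) and 5.02 (2.06 to 14.7). Slc16a5, of the monocarboxylate family, had 10, 30 and 32 counts, giving 2.31 (1.10 to 5.29) and 3.11 (1.49 to 7.09). None of the 3 exceeded 60 counts in a library.

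The dedicated machinery of nutrient absorption was present only in part. Of 20 carriers on the absorptive list, 14 could be compared between caecum and ileum, with 1 at least 2-fold up in the caecum and 1 in the ileum. With 4.59% and 2.52% of all features so called, these counts are close to the background. Between caecum and colon 2 of 14 were up in the caecum and 1 down (5.11% and 2.74% of all features), and between colon and ileum 3 of 15 were up in the colon and 3 down (4.04% and 4.29%). Slc6a19, the main apical carrier of neutral amino acids, had 2, 4 and 0 counts. Slc2a2, the basolateral hexose carrier, had 1, 4 and 4, and Slc6a14, a broad amino acid carrier, had 3, 6 and 2. Slc5a9, a sodium-coupled mannose carrier, had 8, 13 and 18 counts. These 4 and Slc2a7 stayed under 20 counts in every library and were not compared.

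**Figure D3:**
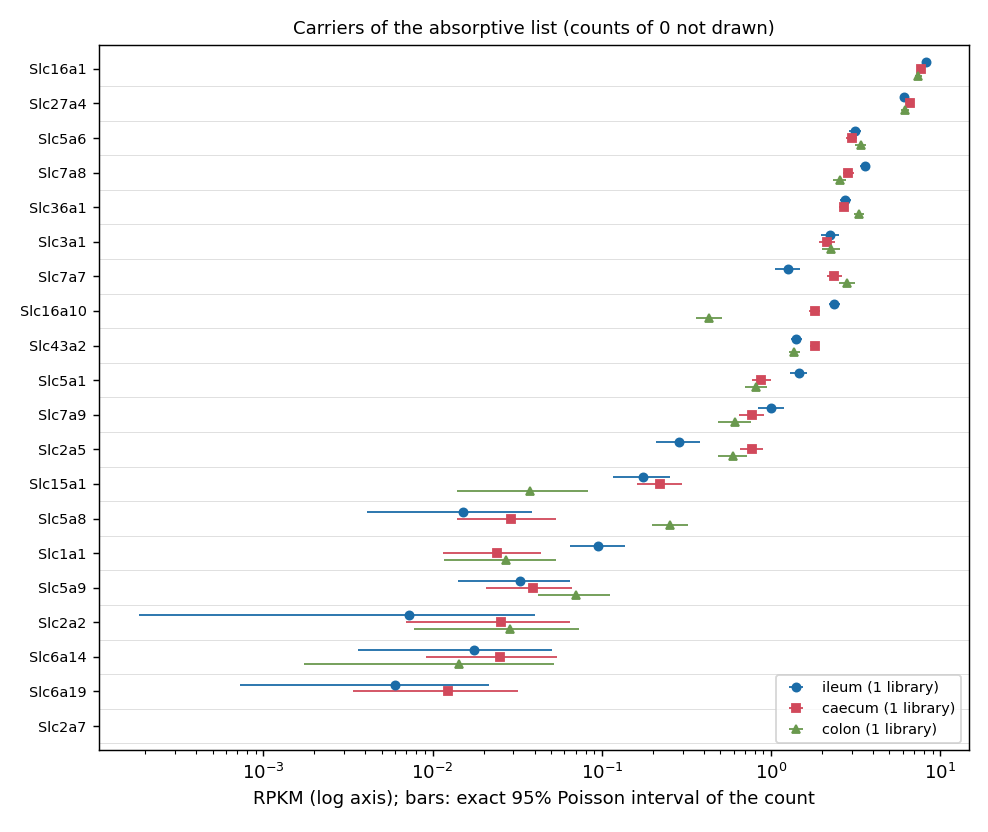
RPKM (horizontal log axis) of the 20 carriers of the absorptive list in each tissue (1 library each), with bars for the exact 95% Poisson interval of the count and counts of 0 left out, ordered by mean level. The colon lies left of both other libraries for Slc16a10 and Slc15a1 and right of both for Slc5a8, while Slc16a1 and Slc27a4 lie close together in all 3.

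Carriers of this list that many tissues use stayed within 2-fold. Slc16a1 (MCT1, for lactate and other monocarboxylates) had 8.18, 7.68 and 7.40 RPKM. Slc27a4, the fatty acid transport protein of enterocytes, had 6.06, 6.62 and 6.17 RPKM. The 3 libraries lay within 1.5-fold of each other for both genes. Slc5a6, the sodium-dependent multivitamin carrier, had 3.14, 2.99 and 3.39 RPKM, and Slc36a1, a proton-coupled amino acid carrier, had 2.75, 2.69 and 3.30. Slc43a2 had 1.41, 1.81 and 1.37 RPKM, and Slc7a8, a light chain of Slc3a2, had 3.59, 2.85 and 2.55.

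Slc5a1, the sodium-glucose carrier SGLT1, was highest in the ileum. It had 301, 232 and 170 counts, or 1.46, 0.876 and 0.815 RPKM. Its ileum-to-caecum ratio was 1.69 (1.42 to 2.01) and its ileum-to-colon ratio 1.82 (1.505 to 2.21). Among brush border digestion genes that act on sugars, Sis had 0, 2 and 0 counts and Treh 0, 0 and 1. Lct had 30, 48 and 42 counts, and Mgam had 4593, 3851 and 2232, or 14.1, 9.20 and 6.76 RPKM. Slc7a9, the apical carrier of cystine and dibasic amino acids, had 1.002, 0.770 and 0.613 RPKM, and its heavy chain Slc3a1 had 2.23, 2.14 and 2.27. Prepl overlaps Slc3a1 on the other strand, with 2708, 3438 and 2690 counts. Slc7a2, a cationic amino acid carrier, also had its highest level in the ileum, at 7.28, 4.38 and 3.81 RPKM, with an ileum-to-colon ratio of 1.94 (1.83 to 2.05).

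Slc16a10 and Slc15a1 were lowest in the colon library. Slc16a10 (ENSMUSG00000019838, chromosome 10, 39753341 to 39862062), which releases aromatic amino acids across the basolateral membrane, had 728, 716 and 134 counts, or 2.37, 1.81 and 0.431 RPKM. Its ileum-to-colon ratio was 5.59 (4.64 to 6.77) and its caecum-to-colon ratio 4.23 (3.51 to 5.12). Slc15a1, the apical peptide carrier PEPT1 (ENSMUSG00000025557, chromosome 14, 121858841 to 121904475), had 28, 44 and 6 counts, or 0.176, 0.221 and 0.0378 RPKM. It was sparse in every library, and the corresponding ratios were 4.80 (1.95 to 14.2) and 5.80 (2.46 to 16.7). Slc27a2, a very long chain acyl-CoA synthetase and fatty acid carrier, shared this pattern with 64, 70 and 27 counts and ratios of 2.44 (1.53 to 3.98) and 2.05 (1.30 to 3.33).

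In bulk tissue, fewer cells of a type and less RNA per cell cannot be told apart. Enterocyte markers summed to 26.1, 20.1 and 9.13 RPKM. In the colon library 2 of 4 compared were at least 2-fold lower than in the caecum library, beside 5.11% of all features. Against the ileum library 3 of 5 were lower in the colon library, beside 4.29%. Apoa1 and Lct stayed within 2-fold there, with colon-to-ileum ratios of 0.901 (0.718 to 1.13) and 1.36 (0.832 to 2.25). The summed level of epithelial markers was not lower in the colon library, but single markers went both ways. Colon-to-ileum ratios were 0.558 for Elf3, 0.707 for Vil1, 0.716 for Epcam and 0.937 for Cldn7. They were 1.24 for Krt18, 1.27 for Cldn6, 1.56 for Cdh1, 1.70 for Krt8 and 2.16 for Krt19. Krt19 also marks mesothelium, whose markers summed to 48.3, 71.4 and 89.4 RPKM. The part of enterocyte or epithelial markers in the differences of Slc16a10, Slc15a1 and Slc27a2 was not tested.

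Slc5a8 ran the other way. It encodes SMCT1, a sodium-coupled carrier of short-chain fatty acids and lactate known from the adult large intestine (ENSMUSG00000020062, chromosome 10, 88348737 to 88392250). It had 4, 10 and 68 counts, and the colon exceeded the ileum by a ratio of 16.5 (6.16 to 62.4) and the caecum by 8.60 (4.40 to 18.7). At 0.254 RPKM it was sparse even in the colon. It was the 1 carrier at least 2-fold lower in the caecum than in the colon, a pattern of 2.74% of all features.

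The stretches just upstream of Slc16a10, Slc15a1 and Slc5a8 are shown because the first 2 genes were lowest in the colon and the third was highest there. RefSeq start sites on GRCm38.p6 were at hand for 76 of the 107 symbols, and the 250 bases before the start are printed 5′ to 3′ on the strand of the gene. Slc16a10 is at chr10:40142255-40142504 (minus strand), Slc15a1 at chr14:121505255-121505504 (minus strand) and Slc5a8 at chr10:88885742-88885991 (plus strand). Capitals mark matches to the motifs described after the sequences.
Slc16a10: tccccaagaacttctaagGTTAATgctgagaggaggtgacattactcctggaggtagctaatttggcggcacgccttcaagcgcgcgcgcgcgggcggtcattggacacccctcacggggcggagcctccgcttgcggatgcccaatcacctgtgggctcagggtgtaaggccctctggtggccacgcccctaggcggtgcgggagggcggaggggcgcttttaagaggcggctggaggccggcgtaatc
Slc15a1: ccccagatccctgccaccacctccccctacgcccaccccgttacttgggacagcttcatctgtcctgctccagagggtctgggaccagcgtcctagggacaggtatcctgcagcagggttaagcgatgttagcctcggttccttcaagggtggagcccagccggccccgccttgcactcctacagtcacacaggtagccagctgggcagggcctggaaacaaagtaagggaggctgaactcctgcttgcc
Slc5a8: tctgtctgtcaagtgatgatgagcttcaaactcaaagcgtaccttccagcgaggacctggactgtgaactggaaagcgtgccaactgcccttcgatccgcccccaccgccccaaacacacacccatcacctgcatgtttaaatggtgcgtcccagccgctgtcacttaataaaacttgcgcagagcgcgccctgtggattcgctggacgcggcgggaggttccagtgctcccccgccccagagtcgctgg

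Motifs were searched on both strands as exact letters. For factors of gut epithelium these were GTTAAT for HNF1, then AAAGTCC for HNF4, then TTTATNG for CDX, then AGATAA for GATA factors. For stress and growth they were TGATGNAA for ATF4, then ACGTG for hypoxia response and CACGTG for the E-box, which contains the previous one. The window of Slc16a10 held 1 kind of match, the HNF1 motif on the printed strand, and those of Slc15a1 and Slc5a8 held none. The HNF1 motif was present in 6.43% of all 32851 windows of this length and in 6 of the 101 windows of carrier genes. Shares of all windows were 3.58% for HNF4, 9.81% for CDX, 9.99% for GATA, 3.45% for ATF4 and 16.6% for hypoxia response, with 2, 5, 5, 3 and 24 of the 101. The E-box was present in 6.02% of all windows and in 12 of the 101, among them windows of Slc7a14 and Slc38a5. The printed windows of Slc16a10, Slc15a1 and Slc5a8 held 21, 7 and 17 CG pairs.

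Nerve and transmitter carriers that stood apart were highest in the caecum or lowest in the colon. Of 11 compared on this list, 1 (Slc1a2) was at least 2-fold up in the caecum against the ileum and 0 down. The shares of all features there were 4.59% and 2.52%. Against the colon, 3 of 11 were up in the caecum and 0 down, beside 5.11% and 2.74% of all features. From ileum to colon 2 were at least 2-fold lower and 0 higher, beside 4.29% and 4.04% of all features. Slc5a7, the choline carrier of cholinergic neurons, had 184, 195 and 68 counts, with an ileum-to-colon ratio of 2.78 (2.10 to 3.73) and a caecum-to-colon ratio of 2.27 (1.71 to 3.04). Slc6a2, which takes up noradrenaline, had 36, 78 and 7 counts and the corresponding ratios 5.29 (2.32 to 14.1) and 8.81 (4.08 to 22.6). Both genes were lowest in the colon. Slc7a14, of the cationic amino acid family and known from neurons, had 217, 364 and 92 counts, with ratios of 2.43 (1.89 to 3.13) and 3.13 (2.48 to 3.98).

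Enteric neuron and glia markers moved with Slc5a7, Slc6a2 and Slc7a14. Of the 8 markers, 4 were at least 2-fold lower in the colon than in the caecum, and 5 were lower than in the ileum. The shares of all features lower in the colon in these comparisons were 5.11% and 4.29%. The part of the markers in the differences was not tested. Other transmitter carriers were closer: Slc6a4, for serotonin, had 0.578, 0.341 and 0.402 RPKM, and Slc6a9, for glycine, had 3.51, 4.56 and 3.99. Slc6a3, Slc6a5 and Slc6a11 had at most 3 counts in any library.

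Across all carriers compared, 9 of 83 were at least 2-fold up and 2 down in the caecum relative to the ileum, beside 4.59% and 2.52% of all features, so the number down was near the background. Relative to the colon, 9 of 82 were up in the caecum and 1 was down, beside 5.11% and 2.74% of all features. In the colon relative to the ileum, 7 of 82 were up and 8 down, beside 4.04% and 4.29% of all features. The carriers' median log2 difference was 0.02, 0.17 and -0.05 in these comparisons. The whole interval lay beyond 2-fold for 5 of the 9 up in the caecum relative to the ileum, for 5 of the 9 relative to the colon, and for 2 and 3 of those up and down in the colon relative to the ileum. Leaving out carriers that overlap another feature gave 5 in place of 9 up in the caecum relative to the colon, and 5 in place of 8 down in the colon relative to the ileum. Shares of all features under these 2 rules were not computed, so these counts cannot be set against a background.

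Both carriers that were lower in the caecum than the ileum were sparse. Slc1a1, an apical glutamate carrier, had 30, 10 and 8 counts, with ratios of 3.90 (1.86 to 8.95) for ileum to caecum and 3.86 (1.73 to 9.74) for ileum to colon. Slc5a11, an inositol carrier, had 30, 12 and 12 counts, with ratios of 3.25 (1.62 to 6.97) and 2.57 (1.28 to 5.52). Slc1a1 overlaps Gm5822 on the other strand, a feature with 13084, 17612 and 14964 counts.

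**Figure D4:**
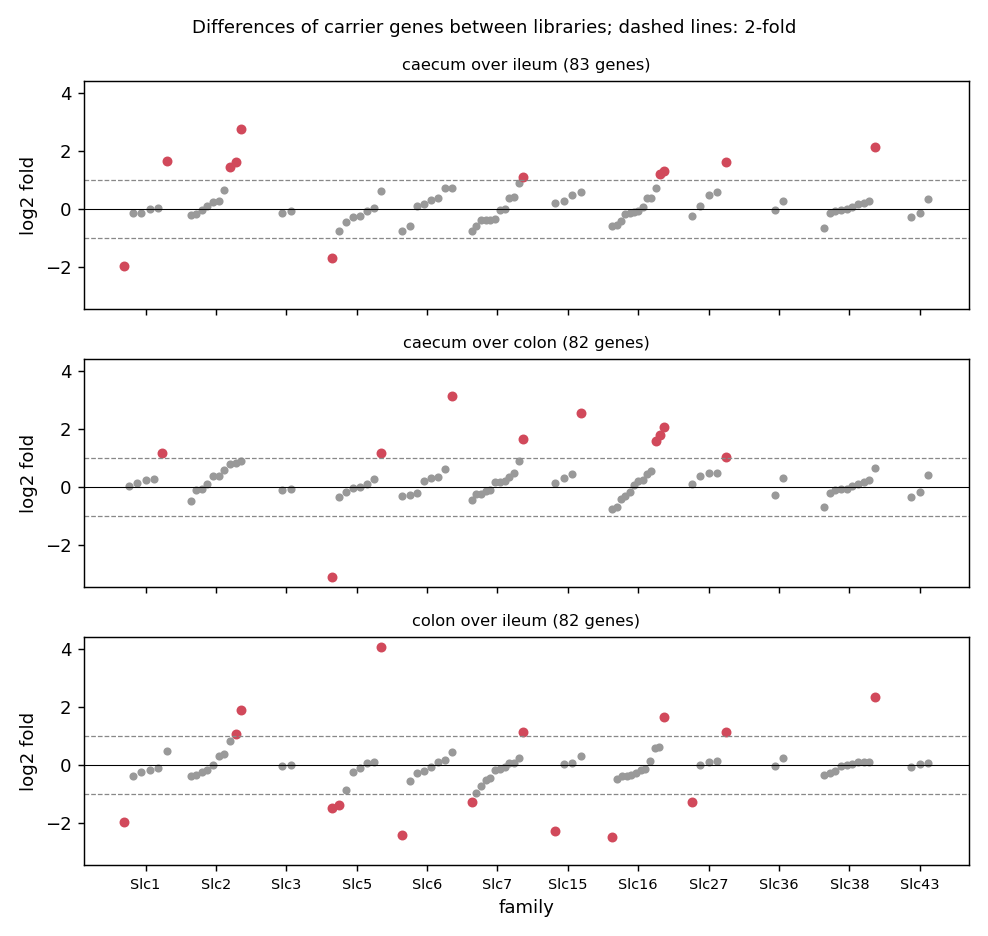
Log2 fold (vertical axis) of each carrier gene with 20 counts or more in the higher library, by family, for caecum over ileum (83 genes), for caecum over colon (82) and for colon over ileum (82), from 1 library per tissue; red points are 2-fold or more apart and dashed lines mark 2-fold. Most points lie between the dashed lines, and Slc3, Slc36 and Slc43 have none outside them.

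Leading members of the remaining families stayed within 2-fold. Slc6a6, the taurine carrier, had 9.63, 11.9 and 9.37 RPKM, and Slc6a8, the creatine carrier, had 8.60, 9.35 and 7.51. Slc15a4 and Slc15a3, peptide and histidine carriers of endosomes and lysosomes, had 7.09, 8.28 and 7.52 RPKM and 5.56, 8.51 and 6.92 RPKM. All 4 of these genes were highest in the caecum, and Slc15a3 had a caecum-to-ileum ratio of 1.51 (1.42 to 1.61). Tmem132a overlaps Slc15a3 on the other strand, with 5986, 11742 and 7185 counts. Slc15a2, a peptide carrier known from kidney, had 1.01, 1.43 and 1.05 RPKM. Slc36a4, an amino acid carrier, had 6.02, 7.31 and 5.99 RPKM, whereas Slc36a2 had 8, 6 and 6 counts.

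Slc2a4, the GLUT4 carrier of muscle and fat, had 7.39, 7.31 and 5.70 RPKM. Slc27a3 and Slc27a1, of the fatty acid transport family, had 6.90, 10.3 and 7.45 RPKM and 2.54, 3.62 and 2.81 RPKM. Slc27a3 had a caecum-to-ileum ratio of 1.48 (1.37 to 1.61). Slc16a13, of the monocarboxylate family, had 3.28, 4.32 and 2.99 RPKM. Slc16a8, a lactate carrier known from retinal pigment epithelium, had 14, 30 and 8 counts and a caecum-to-colon ratio of 2.97 (1.33 to 7.49), and overlaps the more abundant Pick1 on the other strand. Slc5a3, an inositol carrier, had 2.16, 2.21 and 2.29 RPKM and lies within the span of Mrps6 on the same strand. Slc5a2, the renal glucose carrier, had 1.94, 1.67 and 1.67 RPKM, but BC017158 overlaps it on the other strand with 2192, 2470 and 2056 counts.

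Genes that work beside the carriers were mixed. Bsg, the chaperone of Slc16a1 and Slc16a3, had 94.5, 94.05 and 94.6 RPKM. Tmem27, a partner of Slc6a19, had 40, 10 and 16 counts and was highest in the ileum. Of 7 brush border digestion genes compared, 2 were at least 2-fold lower in the caecum than the ileum, 1 lower in the caecum than the colon and 3 lower in the colon than the ileum, with 0 differing in the other direction. The shares of all features lower in these comparisons were 2.52%, 2.74% and 4.29%. Dpp4 had 15.9, 8.40 and 5.74 RPKM. Mep1a, a metalloprotease, had 2.96, 0.964 and 0.779 RPKM.

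Targets of amino acid and oxygen sensing stayed largely within 2-fold. Of the ATF4 targets, 0 of 12 were 2-fold apart between caecum and ileum and 0 of 11 between colon and ileum, and 1 of 12, Nupr1, was up in the caecum relative to the colon with 26, 49 and 19 counts. Asns, the asparagine synthetase gene, had 11.5, 8.99 and 9.59 RPKM. Of 11 hypoxia targets, 1, Ndrg1, was at least 2-fold lower in the caecum than the ileum, and 0 were apart in the other comparisons. Median log2 differences of the hypoxia targets were -0.38 for caecum over ileum, 0.03 for caecum over colon and -0.36 for colon over ileum. Single targets differed: Ldha, a subunit of lactate dehydrogenase, had 215, 155 and 152 RPKM and was highest in the ileum. Vegfa had 18.3, 20.5 and 19.1 RPKM and was highest in the caecum. The part of oxygen sensing in the differences of Slc2a3 or other carriers was not tested. Of 13 genes of intracellular nutrient handling compared between caecum and ileum, 1 was at least 2-fold up in the caecum and 3 were down. Of 12 compared between caecum and colon, 0 were up and 2 down in the caecum, and of 13 between colon and ileum 1 was up and 2 down in the colon. For these lists the shares of all features are 4.59% up and 2.52% down between caecum and ileum, 5.11% and 2.74% between caecum and colon, and 4.04% and 4.29% between colon and ileum.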

How the data were processed

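RNA of 3 tissues, 1 sample each, was read as paired 100 bp reads, per the labels. Bowtie 0.12.7, DESeq and the build mm9 are named, without roles, in the submitters' processing notes. Which program counted reads, with which annotation and strand setting, is not given in the sources used here. Expected counts (multiples of 0.5, per the file headers and values) and RPKM were deposited by the authors in 2 columns per sample. The columns of the ileum, caecum and colon differed by less than counting noise (0.426, 0.451 and 0.442 of its variance) and were averaged as 1 library. Mean counts were rounded and TMM-scaled (edgeR 4.0.16, R 4.3.3), and a fold divides these, with an exact 95% Clopper-Pearson interval from the binomial share. A gene entered with 20 counts in the higher library and was called apart at 2-fold. The intervals were tested on simulated counts with counting error alone, which cannot show how far samples of a tissue differ. All genes 2-fold apart, the 3 most abundant members of each family and the absorptive and growth lists were named, and Slc38a10, Slc6a4, Slc6a3, Slc6a5, Slc6a11 and genes outside the families after values were seen. The carriers and lists were chosen with earlier results of these data known. Some genes are counted but not reported by name here. Alternatives were other scalings, RPKM ratios, single columns, minimums and thresholds.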

Additional observations from a re-analysis of the deposited data

How the results depend on the processing

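Library scaling did not alter any of these numbers of carriers: total counts, DESeq2 1.42.0 size factors and RPKM ratios gave the same genes. None of 865 alternative values for named genes left the counting interval of the reported fold. These alternatives were other scalings, RPKM ratios and single columns of the same libraries. They could hardly leave that interval and do not test differences between samples of a tissue. With a minimum of 100 counts, the numbers of carriers were 0 lower for caecum over ileum, 5 higher and 0 lower for caecum over colon, and 3 higher and 3 lower for colon over ileum. Without a minimum, 4 were lower for caecum over ileum. With the interval wholly beyond 2-fold, 5 were higher and 0 lower for caecum over ileum, 5 higher for caecum over colon, and 2 higher and 3 lower for colon over ileum. At 1.5-fold, 16 were higher and 7 lower for caecum over ileum, and 16 higher and 4 lower for caecum over colon. The second column alone gave 2 lower for caecum over colon. Leaving out carriers that overlap another feature, chosen after seeing the data, gave 1 lower for caecum over ileum, 5 higher for caecum over colon and 5 lower for colon over ileum. Fewer genes enter under the stricter rules. Shares of all features were computed under the main rule only, so whether the carriers' excess over them holds under the other rules is not known. No paired analysis was possible because each tissue had 1 sample.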
